A study of Mus musculus with 45 samples.

Results

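The genes examined here are 10 genes of fast skeletal muscle, read on liver arrays: Acta1, Atp2a1, Myh1, Myh2, Myh4, Myl1, Mylpf, Tnnt3, Tnni2 and Ckm. They are 10 of the 22080 genes of the array table, and they were picked by name because they read high on some liver arrays of the simvastatin and control groups. Their liver values therefore chose them and are a description below: counts of liver calls for these genes are given beside the share over all genes, and nothing is read from them. Their kidney and brain values had no part in the choice and were tested, in a fit that also uses the spread of the liver arrays. RNA came from male C57BL/6 mice, with 8 mice in each diet group. By the methods, mice 7 weeks old were taken into the study and were sacrificed on day 43, so 7 weeks is not their age at sacrifice. All groups ate an AIN-93 diet: Control received it as such, and HCD (high-cholesterol diet) received it with 0.5% cholesterol. The 3 other groups ate the HCD with an addition, which was 1% of a Ganoderma lucidum mushroom extract (HCD+Gl-1 with the first extract, HCD+Gl-2 with the second) or 0.03 g of simvastatin per 100 g (HCD+Sim). By the methods, the mushrooms of Gl-2, unlike those of Gl-1, grew on a substrate with acetylsalicylic acid. Each of the 15 combinations of tissue and diet has 3 arrays, labelled pools A, B and C. Pools A and B hold RNA of separate mice, and pool C is by the methods a mix of both, so a group of 3 arrays rests on 2 separate pools, and the spread between its arrays is partly technical.

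Skeletal muscle contracts when thick filaments of myosin pull on thin filaments of actin, after calcium has reached the troponin on the thin filament. The calcium is then pumped back into the sarcoplasmic reticulum, and creatine kinase renews the ATP that pump and myosin spend. Fast and slow fibres use separate genes for most of these proteins, and the 10 genes code for the fast forms or for proteins that fast fibres hold in bulk. Hepatocytes have no sarcomeres. Simvastatin inhibits HMG-CoA reductase, the enzyme that limits cholesterol synthesis, and acts mainly in the liver, while muscle pain and damage are known side effects of statins. In bulk RNA, fewer cells of a type and less RNA per cell cannot be told apart.

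Promoter windows from RefSeq (GRCm38.p6), from 250 bases before to 50 bases after the gene start, were at hand for 8 of the 10 genes, the others being Tnnt3 and Tnni2. Acta1 is shown as the thin filament gene with the clearest pattern, and the myosin genes Myh2, Myh1 and Myh4 are shown because they follow each other in that order on 1 strand of chromosome 11 while their Control arrays differed. Capitals mark the TATA box TATAAA, the E-box CAGCTG, the CArG box and the MEF2 box on either strand, and the longest run that all 3 myosin windows share. Acta1 lies on the minus strand, at chr8:123894726-123895025, and the myosin windows lie on the plus strand, at chr11:67170777-67171076 (Myh2), chr11:67199852-67200151 (Myh1) and chr11:67237562-67237861 (Myh4).
Acta1: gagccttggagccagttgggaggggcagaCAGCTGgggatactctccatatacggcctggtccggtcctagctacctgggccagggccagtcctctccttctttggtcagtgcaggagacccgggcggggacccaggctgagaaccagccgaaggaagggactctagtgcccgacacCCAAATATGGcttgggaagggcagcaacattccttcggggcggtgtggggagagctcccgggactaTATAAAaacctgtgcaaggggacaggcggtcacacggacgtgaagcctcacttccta
Myh2: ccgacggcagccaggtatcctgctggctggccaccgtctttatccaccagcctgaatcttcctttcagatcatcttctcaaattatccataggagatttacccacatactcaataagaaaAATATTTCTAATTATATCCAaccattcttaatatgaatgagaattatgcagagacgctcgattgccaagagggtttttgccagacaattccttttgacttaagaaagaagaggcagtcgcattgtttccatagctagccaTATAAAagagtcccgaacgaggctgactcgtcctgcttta
Myh1: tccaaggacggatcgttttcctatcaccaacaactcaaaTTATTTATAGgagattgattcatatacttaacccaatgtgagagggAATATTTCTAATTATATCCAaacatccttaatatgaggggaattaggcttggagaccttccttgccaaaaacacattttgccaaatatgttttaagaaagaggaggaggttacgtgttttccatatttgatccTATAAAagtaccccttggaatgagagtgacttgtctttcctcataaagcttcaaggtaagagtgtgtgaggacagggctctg
Myh4: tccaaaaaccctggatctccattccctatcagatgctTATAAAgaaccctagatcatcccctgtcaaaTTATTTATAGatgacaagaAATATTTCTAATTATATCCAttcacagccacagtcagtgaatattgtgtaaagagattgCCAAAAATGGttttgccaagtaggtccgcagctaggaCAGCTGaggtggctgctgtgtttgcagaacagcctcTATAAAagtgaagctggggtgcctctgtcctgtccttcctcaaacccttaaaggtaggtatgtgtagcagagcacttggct

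The run shared by the 3 myosin windows has 20 bases, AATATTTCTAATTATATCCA, and no other of the 32851 RefSeq promoter windows of this length holds it on the strand of its gene. The other strand was not searched for this run, whereas the motifs that follow were searched on both strands. The E-box CAGCTG, one form of the sequence CANNTG that myogenic factors such as MyoD bind, was in 6 of the 8 windows (Acta1, Atp2a1, Ckm, Myh4, Myl1 and Mylpf) and in 16.3% of all windows. TATAAA was in 5 of 8 (Acta1, Myh1, Myh2, Myh4 and Myl1) and in 13.6% of all. The CArG box, which serum response factor binds, was in the windows of Acta1 and Myh4 and in 1.6% of all, and the MEF2 box was in those of Myh1 and Myh4 and in 3.2% of all. In Myh1 and Myh4 a minus-strand TATAAA lies inside the MEF2 box. CANNTG in general was in 72.3% of all windows and in 6 of the 8. These matches are descriptions of letters and do not show binding.

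The tissue labels held up against markers: the lowest array of the labelled tissue lay above every array of the other tissues for 8 of 10 liver, 9 of 9 kidney and 9 of 9 brain markers. Array medians lay between 6.76 and 6.92 on the log2 scale, and the mean of the liver markers stayed within -0.10 to 0.08 of its reference on all 15 liver arrays. Single liver markers differed more between liver groups, by as much as -0.48 in HCD+Gl-2 minus HCD. All levels below are the authors' log2 values after RMA, quantile normalization and ComBat, so a step of 1 is a doubling, and levels are compared only within a gene. Before the results, 2 arrays need naming: HCD+Sim pools A and B of liver read higher than every other liver array in 9 of these genes (all but Tnni2, and for Tnnt3 pool A is level with Control pool B), and pool C, by the methods their mix, read lower. Results that rest on these arrays are given with and without them.

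Of the 10 genes, 9 on HCD+Sim array A and 10 on array B read above all 9 liver arrays of HCD and of both extract groups, against 7.16% and 12.9% of all genes on the same arrays. On HCD+Sim array C only Mylpf did, against 28.1% of all genes. The Control arrays A, B and C had 7, 9 and 7 of the 10 genes above those 9 arrays, against 6.68%, 10.7% and 16.2% of all genes. With the median of those 9 arrays as reference, the median difference over the 10 genes was 1.27 (log2) on HCD+Sim array A, 1.72 on array B and 0.11 on array C, and 0.48, 0.46 and 0.32 on Control arrays A, B and C. The simvastatin group thus had its high readings on 2 of 3 arrays, whereas the smaller Control readings were on all 3.

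**Figure D1:**
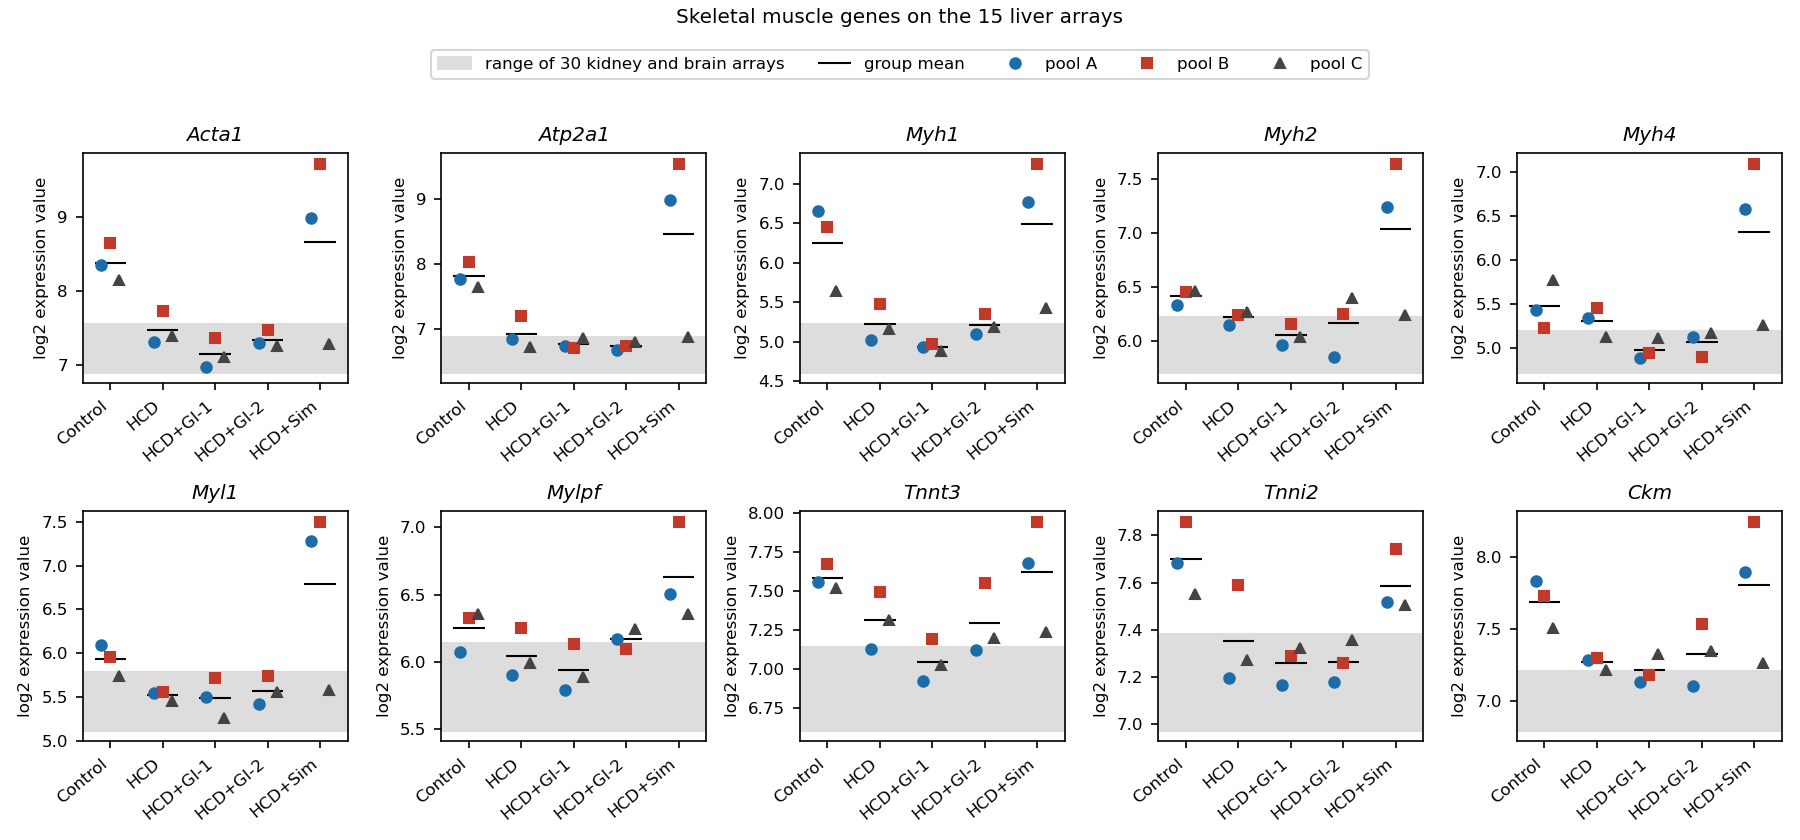
Log2 expression values of the 10 genes on the 15 liver arrays, by diet (horizontal axis) and pool (symbols), with the mean of each group of 3 (line) and the range of the 30 kidney and brain arrays (grey band). HCD+Sim pools A and B stand highest for 9 genes, for example 8.98 and 9.54 for Atp2a1 against 6.88 for pool C. Control pools all lie above the HCD pools for 7 genes, among them Acta1, Atp2a1 and Myh1.

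Atp2a1 codes for SERCA1, the calcium pump of the sarcoplasmic reticulum of fast fibres. It read 8.98, 9.54 and 6.88 on HCD+Sim arrays A, B and C, 7.78, 8.04 and 7.65 on the Control arrays and 6.85, 7.21 and 6.73 on the HCD arrays. The extract groups read as low as the lower HCD arrays, at 6.74, 6.72 and 6.86 in HCD+Gl-1 and 6.68, 6.75 and 6.81 in HCD+Gl-2. The Control arrays did not overlap the HCD arrays, and HCD+Sim array C lay within the HCD range. The group means were 8.47 ± 1.40 (SD, n = 3) for HCD+Sim, 7.82 ± 0.20 for Control and 6.93 ± 0.25 for HCD. In the order of the 5 liver means, which put HCD+Sim first, Control next, then HCD, and the extract groups last, Control and HCD were the only neighbours whose arrays did not overlap.

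Among the thin filament genes, Acta1 codes for skeletal alpha actin, Tnnt3 for the fast troponin T that ties troponin to tropomyosin, and Tnni2 for the fast inhibitory troponin. Acta1 read 9.0, 9.73 and 7.28 on HCD+Sim arrays A, B and C, 8.36, 8.65 and 8.16 in Control, and 7.32, 7.73 and 7.39 in HCD. HCD+Gl-1 gave 6.98, 7.37 and 7.11 and HCD+Gl-2 gave 7.30, 7.48 and 7.26. Its pattern was that of Atp2a1, with Control clear of HCD and the simvastatin group split between high arrays A and B and a low array C. Tnnt3 read 7.68, 7.94 and 7.24 in HCD+Sim, 7.56, 7.67 and 7.52 in Control and 7.13, 7.49 and 7.31 in HCD, with no overlap between Control and HCD. Tnni2 read 7.52, 7.74 and 7.50 in HCD+Sim, 7.68, 7.86 and 7.55 in Control and 7.20, 7.59 and 7.27 in HCD. Tnni2 was the single gene of the 10 whose highest liver mean was that of Control (7.70 ± 0.15, SD, n = 3) and not that of HCD+Sim (7.59 ± 0.13), and all neighbours in its order of means overlapped.

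The thick filament genes Myh1, Myh2 and Myh4 code for the myosin heavy chains of fibre types IIX, IIA and IIB, the fast types of mouse muscle. Myh1 read 6.78, 7.26 and 5.43 on HCD+Sim arrays A, B and C, 6.66, 6.46 and 5.64 in Control and 5.03, 5.47 and 5.16 in HCD. HCD+Gl-1 gave 4.93, 4.97 and 4.89 and HCD+Gl-2 gave 5.09, 5.35 and 5.19. Control arrays A and B of Myh1 were thus near HCD+Sim array A, while Control array C was near the highest HCD array. Myh4 read 6.58, 7.09 and 5.26 in HCD+Sim, 5.42, 5.22 and 5.77 in Control and 5.34, 5.45 and 5.12 in HCD. For Myh4 the Control and HCD arrays overlapped, and HCD+Sim arrays A and B stood alone. Myh2 read 7.24, 7.65 and 6.24 in HCD+Sim, 6.33, 6.45 and 6.46 in Control and 6.14, 6.24 and 6.27 in HCD, a narrow step between Control and HCD without overlap.

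The 3 heavy chains, whose promoter windows share the run printed above, were alike on the simvastatin arrays and unlike on the Control arrays. Above the reference median of each gene, HCD+Sim array B read 2.16 higher for Myh1, 1.97 for Myh4 and 1.49 for Myh2, and array A 1.68, 1.46 and 1.09. Control array A read 1.56 higher for Myh1, 0.30 for Myh4 and 0.18 for Myh2, and Control array B 1.36, 0.10 and 0.30. Control array C had the opposite order for Myh1 and Myh4, at 0.54 and 0.65. With 1 probe set per gene and no test on these values, the order between the heavy chains is a description of single arrays.

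Myl1 and Mylpf code for the light chains that sit on the neck of the fast myosin head, the essential and the regulatory one. Myl1 read 7.28, 7.50 and 5.58 on HCD+Sim arrays A, B and C, 6.09, 5.95 and 5.74 in Control and 5.55, 5.56 and 5.45 in HCD. Mylpf read 6.50, 7.04 and 6.35 in HCD+Sim, 6.08, 6.32 and 6.35 in Control and 5.90, 6.25 and 5.99 in HCD. All 3 HCD+Sim arrays lay above all 3 HCD arrays for Myl1 and Mylpf and for no other of the 10 genes, and over all genes this held for 9.26%. Ckm, which codes for muscle creatine kinase, read 7.90, 8.24 and 7.26 in HCD+Sim, 7.83, 7.72 and 7.50 in Control and 7.28, 7.30 and 7.22 in HCD. Its Control arrays lay above its HCD arrays, and its HCD+Sim array C lay within the HCD range.

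On the 6 arrays of the extract groups the ranges of the other 7 genes overlapped those of the HCD arrays. Taken alone, the HCD+Gl-1 arrays lay all below the HCD arrays for Myh4, as they did for Myh1, against 8.83% of all genes. Myh2 lay between 5.85 and 6.40 there, Myh4 between 4.88 and 5.16, Myl1 between 5.26 and 5.74 and Mylpf between 5.79 and 6.25. Tnnt3 lay between 6.92 and 7.55, Tnni2 between 7.17 and 7.36 and Ckm between 7.10 and 7.54. In the order of the 5 liver means HCD+Sim came first for 9 of the 10 genes and HCD+Gl-1 last for 9, with Atp2a1 as the exception at the low end. The arrays of HCD+Sim and Control overlapped for all 10, and for Myh4, Mylpf, Tnni2 and Ckm no neighbours in the order were free of overlap.

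Pool C was set against pools A and B because the methods give it as their mix. From the linear values of pools A and B an even mix was computed, and its log2 was subtracted from the value of pool C. In liver HCD+Sim the pool C value was below both pools A and B for 10 of the 10 genes and for 18.3% of all genes. The difference from the computed mix had a median of -1.41 (log2) over the 10 genes and 0.09 over all genes, with a 1st percentile of -0.46 over all genes. The mix for Atp2a1 came to 9.29 and pool C read 6.88, a difference of -2.41. Acta1 differed by -2.12, Myl1 by -1.82, Myh1 and Myh4 by -1.60 each, and Myh2 by -1.21. Tnni2, at -0.13, and Mylpf, at -0.44, lay inside that 1st percentile. The genes were picked for being high on some of these arrays, so a lower array C follows in part from the choice, and these values are a description.

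For the liver Control group, pool C was below both others for 7 of the 10 genes and above both for 3, with a median difference from the mix of -0.24 against 0.05 over all genes. Myh1 had the lowest of these differences, at -0.92, where the 1st percentile of all genes was -0.44. In the other 3 liver groups the median over the 10 genes lay between -0.10 and 0.06. In kidney and brain it lay between -0.07 and 0.15, and single genes between -0.33 and 0.36. ComBat and quantile normalization were applied before this comparison, and their part in it was not tested.

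**Figure D2:**
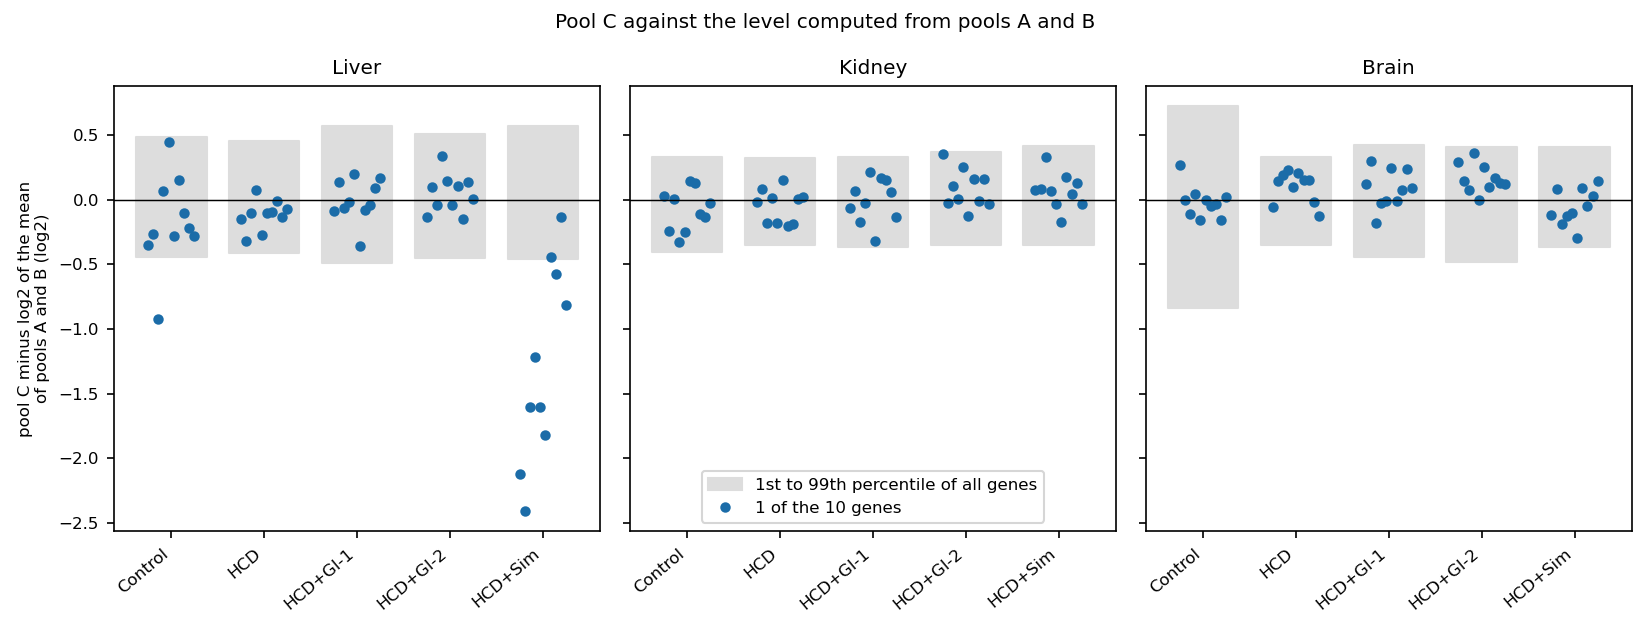
Difference between the log2 value of pool C and the log2 of the mean of the linear values of pools A and B, for each of the 10 genes (points) in 15 groups, with the 1st to the 99th percentile of all 22080 genes (grey). In liver HCD+Sim all 10 points are below 0, from -2.41 to -0.13, and in kidney and brain all lie between -0.33 and 0.36.

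Kidney and brain gave the level of the same probe sets in tissues that had no part in the choice. Over the 30 arrays Atp2a1 lay between 6.33 and 6.88, Acta1 between 6.90 and 7.56, and Myh1 between 4.61 and 5.23. Myh2 lay between 5.70 and 6.22, Myh4 between 4.71 and 5.19, and Myl1 between 5.11 and 5.78. For Mylpf, Tnnt3, Tnni2 and Ckm the ranges were 5.49 to 6.14, 6.61 to 7.14, 6.97 to 7.38 and 6.79 to 7.20. Above the highest of these 30 values were all 10 genes on HCD+Sim arrays A and B and on Control array B, and 9 of 10 on Control arrays A and C. HCD+Sim array C had 7 of 10 and HCD array B had 9 of 10 above it, HCD arrays A and C had 2 and 3, and the 6 arrays of the extract groups had between 0 and 4. Liver readings above this range were thus not limited to the Control and HCD+Sim groups. The share of all genes above their own kidney and brain range was not computed. These counts are therefore a description of the 10 genes, and nothing further is read from them.

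No diet comparison in kidney or brain called any of the 10 genes. The comparisons were HCD against Control, the 2 extract groups and HCD+Sim each against HCD, and HCD+Sim against Control. They were tested with limma, with Benjamini-Hochberg adjustment over all genes, and a gene was called past an absolute log2 difference of 0.7 with an adjusted p of at most 0.05. In that order, the share of all genes called in either direction was 0.0408%, 0.131%, 0.335%, 0.14% and 0.0317% in kidney and 0.0317%, 0.00906%, 0.0226%, 0% and 0.00906% in brain, so a count of 0 among 10 genes is no result about them. None of the 100 tests of single genes had an unadjusted p under 0.05, and the lowest adjusted p was 0.603. The differences ran from -0.40 to 0.22, both for Myl1, and their 95% intervals lay between -0.88 and 0.72. In kidney, HCD+Sim minus HCD was -0.19 for Acta1 (95% interval -0.72 to 0.35), -0.09 for Atp2a1 (-0.67 to 0.48) and 0.11 for Myh1 (-0.37 to 0.59). In brain the same comparison gave -0.11 for Acta1, -0.07 for Atp2a1 and -0.08 for Myh1, each with an interval that included 0. The liver and kidney differences were not tested against each other, because the liver values chose the genes.

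In liver, HCD+Sim minus HCD was positive for all 10 genes, from 0.24 (Tnni2) to 1.54 (Atp2a1), with a median of 0.92 against 0.03 over all genes. The same fit placed 6 of the 10 genes past the call thresholds as higher, Acta1, Atp2a1, Myh1, Myh2, Myh4 and Myl1, where 0.199% of all genes were called higher. The differences were 1.19 for Acta1, 1.27 for Myh1 and Myl1, 1.01 for Myh4 and 0.83 for Myh2. Without HCD+Sim array B the call remained for Atp2a1 alone, with a difference of 1.00, and without array C there were 8 called genes. With arrays A and B both left out, which leaves array C as the lone simvastatin array, the median difference was 0.01. A fit on the 15 liver arrays alone, in which the HCD+Sim spread (SD 1.40 for Atp2a1) is averaged over 5 groups and not over 15, called none of the 10. Shares over all genes were not computed for these other fits, and nothing is read from their counts.

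HCD minus Control was negative for all 10 genes in liver, with a median of -0.38 against -0.01 over all genes. The lowest values were -1.03 for Myh1, -0.91 for Acta1 and -0.90 for Atp2a1, followed by -0.42 for Ckm, and the highest was -0.17 for Myh4. In 7 genes (Acta1, Atp2a1, Myh1, Myh2, Myl1, Tnnt3 and Ckm) the HCD arrays were all below the Control arrays, against 8.77% of all genes. Myh1 was the 1 gene past the thresholds, where 0.14% of all genes were called lower. The Control readings had a part in the choice of the genes, so this call is no result. It was lost without HCD array A or C or Control array A or B. On pools A and B only, Acta1, Atp2a1 and Myh1 were called, and the share over all genes was not computed for that fit.

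HCD+Sim minus Control had a median of 0.33 over the 10 genes and ranged from -0.11 (Tnni2) to 0.86 (Myl1). Myh4 was the 1 gene called, at 0.84, where 0.217% of all genes were called higher and 0.14% lower, and as both groups had a part in the choice nothing is read from it. Without HCD+Sim array A or B, or Control array A or B, none of the 10 was called, and without HCD+Sim array B the median difference was -0.00. Without HCD+Sim array C, 6 were called. No share over all genes was computed for these fits with arrays left out, so nothing is read from their counts. Without HCD+Sim arrays A and B together, which leaves array C alone, the median turned to -0.35. The differences of the 10 genes then ran from -1.105 (Acta1) to 0.103 (Mylpf). Both simvastatin comparisons share the HCD+Sim arrays, HCD minus Control shares its arrays with both, and the extract comparisons share the HCD arrays, so their values are not independent of each other. HCD+Gl-1 minus HCD was negative for all 10 genes, between -0.33 and -0.03, and HCD+Gl-2 minus HCD was positive for 3 of 10, between -0.24 and 0.12. None of the 10 genes was called in these, with 1 and 0 of the 10 at an unadjusted p under 0.05, where 0.163% and 0.303% of all genes were called.

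**Figure D3:**
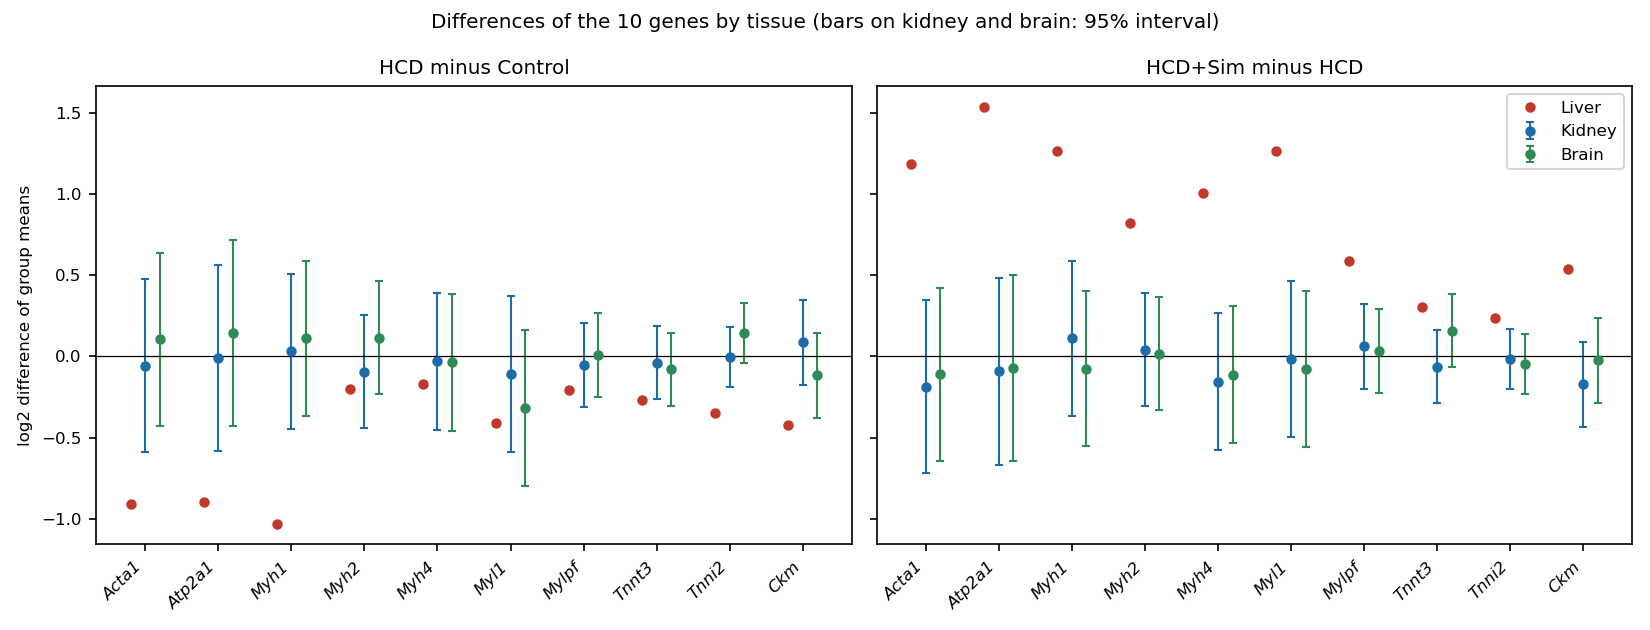
Log2 differences of group means for the 10 genes in liver, kidney and brain, for HCD minus Control and HCD+Sim minus HCD, with 95% intervals from limma on the kidney and brain values. These values had no part in choosing the genes, but the intervals use the spread of all 15 groups, liver included. The liver points, shown without intervals, are all below 0 in HCD minus Control and all above 0 in HCD+Sim minus HCD, up to 1.54, while each kidney and brain interval includes 0.

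A further 55 genes of skeletal muscle, in lists of thin filament, thick filament, Z disc, calcium release and energy supply genes, were followed on the same arrays. In HCD+Sim minus HCD, 50 of the 55 were positive, with a median of 0.17 against 0.03 over all genes, and 2 were called higher, Tnnc2 and Tpm2. On HCD+Sim arrays A, B and C, 21, 37 and 21 of the 55 read above the 9 arrays of HCD and the extract groups, against 7.16%, 12.9% and 28.1% of all genes. Tnnc2, the calcium-binding subunit of fast troponin, read 8.47, 8.42 and 7.12 in HCD+Sim, 7.75, 8.01 and 7.45 in Control and 7.11, 7.22 and 6.94 in HCD. Its difference was 0.91 (standard error 0.18, adjusted p 0.00465, limma), and it was not called without HCD+Sim array A or array B. Tpm2, beta tropomyosin, read 7.84, 8.07 and 7.18 in HCD+Sim and 6.84, 6.85 and 7.07 in HCD, with a difference of 0.78 (standard error 0.14, adjusted p 0.00141, limma), and was not called without array B. Neither gene was called with arrays A and B left out together. A fit on the liver arrays alone called neither gene. The lists were chosen with results of these arrays known, so nothing is read from these calls.

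Among these 5 lists, the thin filament and energy supply lists stood highest on HCD+Sim arrays A and B, but not on array C. There the 5 lists lay between 0.03 (thin filament) and 0.22 (calcium release). The thick filament list leaves out Myh1, Myh2, Myh4, Myl1 and Mylpf, which are among the 10 genes, and holds others such as Myh3, Myh8 and Myh13. The thin filament list includes Actn2 and Actn3. The order of the lists depends on this division and is not an order of roles. The mean difference from the reference was 0.54 and 0.59 on arrays A and B for 8 thin filament genes and 0.40 and 0.70 for 10 energy supply genes. For 13 Z disc genes it was 0.12 and 0.39, for 14 calcium release genes 0.13 and 0.27, and for 10 thick filament genes 0.08 and 0.27. In energy supply, 9 of 10 genes were positive in HCD+Sim minus HCD, with a median of 0.37 and none called, although 9 had an unadjusted p under 0.05. Pygm, the muscle glycogen phosphorylase, read 7.27, 7.62 and 6.57 in HCD+Sim and 6.70, 6.85 and 6.72 in HCD, Cox6a2, a muscle subunit of cytochrome c oxidase, read 7.50, 8.01 and 7.31 against 7.17, 7.35 and 7.38, and Pfkm, the muscle phosphofructokinase, 7.84, 8.18 and 7.98 against 7.77, 7.71 and 7.80. Of the genes with the highest means in their lists, Tpm1, Mylk2, Myoz3, Ldb3, Cmya5, Jph1, Trdn and Pvalb were not called in any liver comparison. Pvalb, the parvalbumin that buffers calcium in fast fibres, read 6.95, 6.82 and 6.45 in HCD+Sim and 6.11, 5.99 and 6.15 in HCD.

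On Control arrays A, B and C, 16, 28 and 16 of the 55 read above the 9 arrays of HCD and the extract groups. Over all genes the shares were 6.68%, 10.7% and 16.2%. In the Control arrays the 55 genes held another leading gene. Myh8, the perinatal myosin heavy chain, read 7.20, 7.63 and 6.05 on Control arrays A, B and C, 5.95, 6.21 and 6.12 in HCD and 5.99, 6.26 and 6.21 in HCD+Sim. It was high on Control arrays A and B and on no other liver array, HCD+Sim included. HCD minus Control was -0.86 for Myh8 (standard error 0.18, adjusted p 0.00502, limma), and HCD+Sim minus Control was -0.81 (adjusted p 0.00919, limma). Both calls were lost without Control array A and without Control array B. It was the 1 gene of the 55 called in each of these comparisons, where 8 of 55 and 40 of 55 were positive, with medians of -0.11 and 0.07 against -0.01 and 0.02 over all genes. In the extract comparisons none of the 55 was called, with 6 and 3 at an unadjusted p under 0.05. In kidney and brain none of the 55 was called either, with between 0 and 4 at an unadjusted p under 0.05 in each of 10 comparisons.

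**Figure D4:**
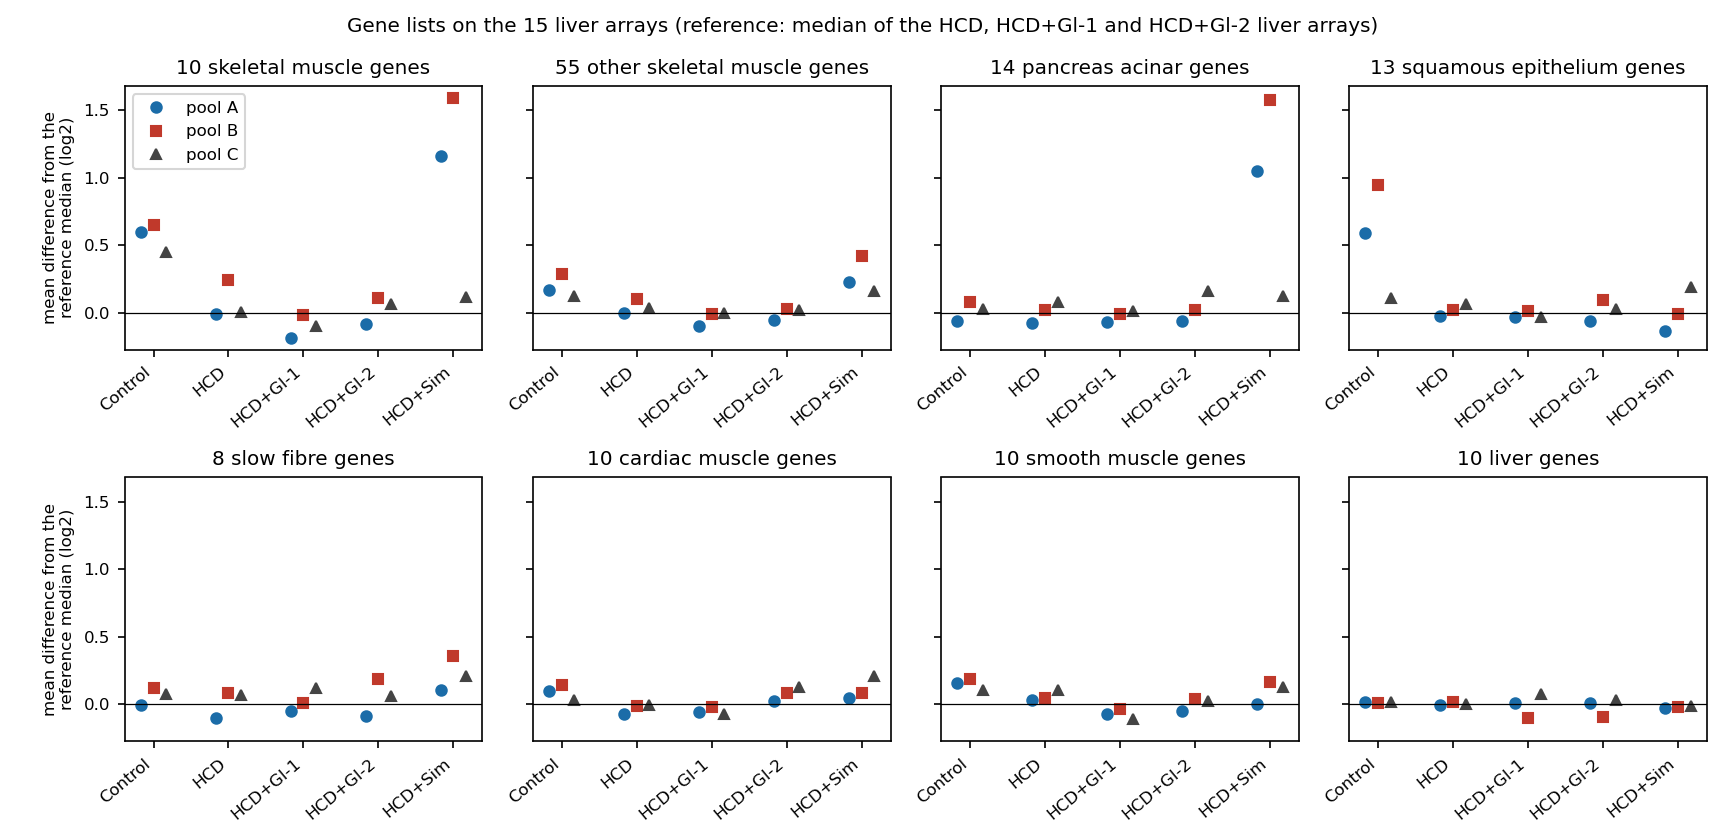
Mean log2 difference of 8 gene lists from each gene's median over the 9 liver arrays of HCD and both extract groups, for each of the 15 liver arrays (symbols show pools). The 10 skeletal muscle genes and the pancreas acinar genes are both highest on HCD+Sim pools A and B (1.16 and 1.59 for the first, 1.05 and 1.58 for the second), and the squamous epithelium genes are highest on Control pools A and B (0.59 and 0.94).

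Markers of other cell types were read on the same liver arrays. The 14 pancreas acinar genes, which code for digestive enzymes and their helpers, were followed first. Their mean lay 1.05, 1.58 and 0.12 above reference on HCD+Sim arrays A, B and C, beside 1.16, 1.59 and 0.12 for the 10 muscle genes. On those arrays 12, 14 and 4 of the 14 read above the 9 reference arrays, against the same 7.16%, 12.9% and 28.1% of all genes. Their mean level ran from 6.08 to 7.54 in HCD+Sim and between 5.88 and 6.12 over the 4 other groups, Control included. In HCD+Sim minus HCD 9 of the 14 were called higher, Cela2a, Cpa1, Cpb1, Ctrb1, Ctrl, Pnlip, Clps, Prss2 and Cel, and the same 9 were called higher against Control, beside 0.199% and 0.217% of all genes. Without array B the calls were 5 and 4, and without arrays A and B together they were 0 and 0. A fit on the liver arrays alone called 0 and 1 of them, and a fit on the compared groups alone called none. Ctrb1, the chymotrypsinogen B gene, read 9.14, 9.69 and 6.95 in HCD+Sim and at most 6.97 on the other 12 liver arrays. Cela1, with the highest mean of the list over the 45 arrays, read 8.11, 8.25 and 7.71. The acinar list was chosen with earlier results of these data known, so its liver calls are a description. The part of this signal in the readings of the muscle genes was not tested.

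In Control the acinar list stayed at -0.06, 0.08 and 0.03, and another list stood out. The mean of the 13 squamous epithelium genes lay 0.59, 0.94 and 0.11 above reference on Control arrays A, B and C, beside 0.60, 0.65 and 0.45 for the 10 muscle genes. On those arrays 8, 9 and 3 of the 13 read above the 9 reference arrays, against 6.68%, 10.7% and 16.2% of all genes. Their mean level ran from 5.79 to 6.63 in Control and between 5.55 and 5.87 in the other groups. In HCD minus Control, Krt4, Krt13, Sprr3 and Krtdap were called lower, as they were in HCD+Sim minus Control, beside 0.14% of all genes in each. Without Control array B, Krt4 and Sprr3 were not called in HCD minus Control. None was called there when the fit held only liver arrays or only the compared groups, or with the lowest 25% of genes left out. Krt4, a keratin of moist stratified epithelia such as the oesophagus, read 7.80, 8.63 and 5.82 on Control arrays A, B and C, and Krtdap, a gene of keratinocyte differentiation, 6.55, 7.27 and 5.09. The broad keratinocyte markers Krt5 and Pkp1 read 6.42, 6.71 and 6.24 and 6.50, 6.84 and 6.68, and Trp63 6.28, 6.16 and 6.33. On array C the muscle genes ranged from 0.19 (Myl1) to 0.91 (Atp2a1) above reference, and Myh1 read 0.54 there after 1.56 and 1.36 on arrays A and B. The squamous list was also chosen with earlier results of these data known, so its liver calls are a description. What part the squamous signal has in the muscle readings was not tested.

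Other muscle types showed smaller values than the 10 genes on the Control arrays and on HCD+Sim arrays A and B, but not on HCD+Sim array C. The mean of the 8 slow fibre genes lay 0.10, 0.36 and 0.21 above reference on the HCD+Sim arrays and at most 0.12 on the Control arrays. The slow heavy chain gene Myh7 read 6.57, 6.75 and 6.71 in HCD+Sim and 6.43, 6.57 and 6.60 in HCD. On the HCD+Sim arrays the slow fibre list was thus no lower than the list of 10 thick filament genes, at 0.08, 0.27 and 0.20. The mean of the 10 cardiac genes lay between 0.03 and 0.21 on the 6 Control and HCD+Sim arrays. Single genes lay further off: Actc1, the cardiac actin, read 7.13, 7.70 and 6.69 in Control and 6.63, 6.38 and 6.64 in HCD. The mean of the 10 smooth muscle genes lay between 0.00 and 0.19, and Acta2, the smooth muscle actin, read 8.06, 8.38 and 8.10 in Control and 7.65, 7.56 and 7.76 in HCD. Above the 9 reference arrays on HCD+Sim arrays A, B and C were 2, 7 and 4 of the 8 slow fibre genes. The counts were 2, 2 and 6 of the 10 cardiac genes and 0, 5 and 1 of the 10 smooth muscle genes. Over all genes the shares were 7.16%, 12.9% and 28.1%. Control arrays A, B and C had 1, 1 and 0 slow fibre, 2, 3 and 2 cardiac and 4, 3 and 4 smooth muscle genes above the reference arrays. The Control shares over all genes were 6.68%, 10.7% and 16.2%. The mean of the 8 myogenic regulators and satellite cell genes lay between -0.02 and 0.14, with the MyoD gene Myod1 between 6.33 and 6.54 on the 6 arrays. The mean of the 8 adipocyte genes lay between 0.06 and 0.33, led on Control array B by Fabp4 at 7.49. Of these 8, Control arrays A, B and C had 3, 5 and 1 above the reference arrays, and HCD+Sim arrays A, B and C had 1, 2 and 3. None of the genes of these 5 lists was called in a liver comparison. In HCD minus Control, Actc1 (-0.62, adjusted p 0.00394) and Acta2 (-0.52, adjusted p 0.000536) passed the adjusted p of limma but not the fold threshold. So did Acta2 in HCD+Sim minus Control (-0.50, adjusted p 0.000668), the slow fibre gene Myoz2 in HCD+Sim minus HCD (0.48, adjusted p 0.00761) and the smooth muscle gene Cnn1 in HCD+Gl-2 minus HCD (-0.38, adjusted p 0.0217). The means of these 5 lists stood 0.36 or less above reference on every Control and HCD+Sim liver array. The part of these lists in the readings of the 10 genes was not tested.

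Across the 15 liver arrays the 45 pairs among the 10 genes had Pearson correlations between 0.55 and 0.98, with a median of 0.85. Without HCD+Sim arrays A and B the median over the 13 arrays was 0.69, and over the 9 arrays of HCD and the extract groups it was 0.50. In kidney and brain, with 15 arrays each, the medians were 0.13 and 0.09. All arrays of a tissue share their normalization, and pool C shares RNA with pools A and B, so these are descriptions.

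The genes outside the 10 whose liver pattern was most like the mean of the 10, by Pearson correlation over 15 liver arrays, were LOC102641264 (0.98), Tnnc2 (0.95), Ryr1 (0.93), Tpm2, Actn2, Mb and Clps (0.92 each), Ckmt2, Slc25a4 and Pla2g1b (0.91 each), Cela2a, Eno3, Pygm and Cox8b (0.89 each) and Cpa1 (0.88). Of these 15, 9 belong to the lists of skeletal muscle genes and 3 (Clps, Cela2a and Cpa1) to the acinar list. Ryr1 codes for the calcium release channel of muscle and Mb for myoglobin, and Pla2g1b for the pancreatic phospholipase A2. Without HCD+Sim arrays A and B the correlation over 13 arrays was 0.96 for LOC102641264, 0.91 for Tnnc2 and Eno3 and 0.87 for Mb, whereas it was 0.62 for Clps, 0.43 for Cela2a and 0.29 for Cpa1. LOC102641264 read 7.06, 7.58 and 6.10 in HCD+Sim, 6.69, 6.96 and 6.41 in Control and 5.94, 6.20 and 6.01 in HCD.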

How the data were processed

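RNA pools of mouse liver, kidney and brain were measured on 45 Affymetrix Mouse Gene ST microarrays. The authors corrected the intensities by RMA, quantile normalized them, adjusted a batch effect with ComBat (the batches are not named) and kept 1 probe set per gene, and the deposited values are on the log2 scale. Probe-level data were not used here, so detection above background is unknown. Tissue, diet and pool were taken from the labels. Groups were compared with limma 3.58.1 in R 4.3.3, in 1 fit of 15 group means, with empirical Bayes moderation and Benjamini-Hochberg adjustment over 22080 genes, at the thresholds of the study. The fit was tested on simulated data with 200 changed genes. The 10 genes and all lists were chosen with earlier results of these data known. Genes named are the 10, the 3 with the highest means of each list, those of the lists called in a liver comparison, and the 15 most correlated genes, except 1 gene that is not reported here. Alternatives were other array sets, normalization, filter, moderation and thresholds. HCD+Sim liver arrays A and B were also left out together, after the data were seen. The number of arrays limits the precision. Pool letters did not pair the arrays: in no comparison did all 3 correlations of same-letter deviations exceed 0.1. Figures were drawn with matplotlib 3.10.9.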

Additional observations from a re-analysis of the deposited data

How the results depend on the processing

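None of the 10 genes was called in kidney or brain in any of the 140 counts that the alternatives gave over the 10 comparisons. The differences of the main fit ran from -0.40 to 0.22 there. They fell short of the threshold of 0.7 that every setting but the adjusted p alone kept, so these counts are no test of stability. In liver, a fit on the tissue's arrays or on the compared groups only called 0 of the 10 genes and 0 of the other 55 in every comparison, where 6 and 2 were called in HCD+Sim minus HCD and 1 and 1 each in HCD minus Control and HCD+Sim minus Control. The fits on fewer arrays share the spread over fewer groups. The share of all genes called was computed for the main fit only, so nothing is read from the counts in other settings. Pools A and B only gave 3 and 2 in HCD minus Control, 4 of the 55 in HCD+Sim minus HCD, and 5 and 2 in HCD+Sim minus Control. The pool letter as a replicate block gave 2 of the 10 genes in HCD minus Control and 2 in HCD+Sim minus Control, and changed no other count by over 1.5 times. Leaving out the lowest 25% of genes by mean level, which holds Myh1, Myh4 and Myl1, gave 0, 3 and 0 of the 10 genes in HCD minus Control, HCD+Sim minus HCD and HCD+Sim minus Control, since those 3 are then not tested. Quantile normalization within the tissue gave 0 of the 10 in HCD+Sim minus Control, and the cause was not tested. The adjusted p alone gave 2 of the 10 and 3 of the 55 in HCD minus Control, 7 of the 55 in HCD+Sim minus HCD and 3 of the 55 in HCD+Sim minus Control.

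With each array left out in turn, the counts among the 10 ranged from 0 to 1 in HCD minus Control, from 1 to 8 in HCD+Sim minus HCD and from 0 to 6 in HCD+Sim minus Control, and among the 55 from 0 to 2, from 0 to 4 and from 0 to 4. Leaving out HCD+Sim arrays A and B together was chosen after the data were seen. It gave a median difference over the 10 genes of 0.012 in HCD+Sim minus HCD and of -0.35 in HCD+Sim minus Control. Each group holds 2 separate pools of RNA, and the values cannot separate the batches that ComBat adjusted.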
